A study of Rattus norvegicus with 9 samples.

Results

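Transcripts of 84 chromatin modifier genes were examined in the rat dorsal hippocampus, out of 18166 genes with a probe set of 1 gene symbol. Sirtuins were among them, but the histone deacetylase genes named Hdac were not. The rule was one of names and used no measured value: it took symbols made of Chd, Kdm, Kmt, Setd, Arid, Smarc, Brd, Kat, Sirt, Dnmt or Tet followed by a digit (after Smarc, a letter), together with Crebbp, Ezh1, Ezh2 and Ash1l. Each gene had 1 probe set, so no gene was represented by a choice among several. The set itself was chosen with earlier results of these data known. The measurements came from Rat Gene 2.0 ST arrays, 1 array per rat, and the values are log2 expression as deposited. All rats were male Sprague-Dawley rats aged 8 weeks. The OXT-treated VPA group (n = 3) was born to dams that had received 600 mg/kg of oral valproic acid (VPA) once in mid-gestation, and received intranasal oxytocin (OXT) at 12 µg/kg per day from postnatal day 21 to 55. The vehicle-treated VPA group (n = 3) had the same prenatal exposure and received vehicle. The control group (n = 3) came from dams that had been given water and also received vehicle. RNA was extracted on postnatal day 56. The VPA rats came from 3 dams and the control rats from 2 dams, so littermates were present, and the labels do not give the dam of each rat. P values therefore measure the spread between these rats, and 3 rats per group limit the precision.

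DNA in the nucleus is wrapped around histones, and chromatin modifiers decide how accessible it is. DNA methyltransferases add methyl groups to cytosine and TET enzymes oxidize them. Acetyltransferases, methyltransferases, demethylases and sirtuins write or erase marks on histone tails, bromodomain proteins read acetylated lysine, and remodeling complexes driven by ATP (SWI/SNF, ISWI and CHD families) slide or evict nucleosomes. VPA is an inhibitor of histone deacetylases, and rare mutations of several genes of this kind, among them CHD8, ARID1B and SETD5, cause neurodevelopmental disorders in humans. The comparisons asked whether the transcripts of these enzymes differed in adult rats after prenatal VPA, and whether OXT treatment changed them.

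Chromatin modifier transcripts differed little between the 3 groups. Of the 84 genes, 68 reached the level that the study required, a group mean above 6.6, and 16 did not (Dnmt3b, Dnmt3l, Sirt4, Sirt7, Ezh2, Setd4, Setd6, Kmt5c, Kdm1b, Kdm4d, Kdm8, Smarcal1, Arid3a, Arid3c, Arid5a and Smarce1-ps10). In the comparison of vehicle-treated VPA with control rats, 77 genes had differences below 0.2 in size, and the differences ran from -0.38 for Kat2b to 0.29 for Chd5 and Smarce1-ps10. Between OXT-treated and vehicle-treated VPA rats all 84 genes were below 0.2 in size, with a range from -0.18 for Dnmt3b to 0.19 for Smarce1-ps10. In OXT-treated VPA against control rats 77 genes were below 0.2 in size, and the range was from -0.40 for Kat2b to 0.48 for Smarce1-ps10. The median differences of the 84 genes were -0.02, -0.0067 and -0.02 in these 3 comparisons, beside 0.0067, 0.0033 and 0.0067 over all 30429 probe sets.

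**Figure D1:**
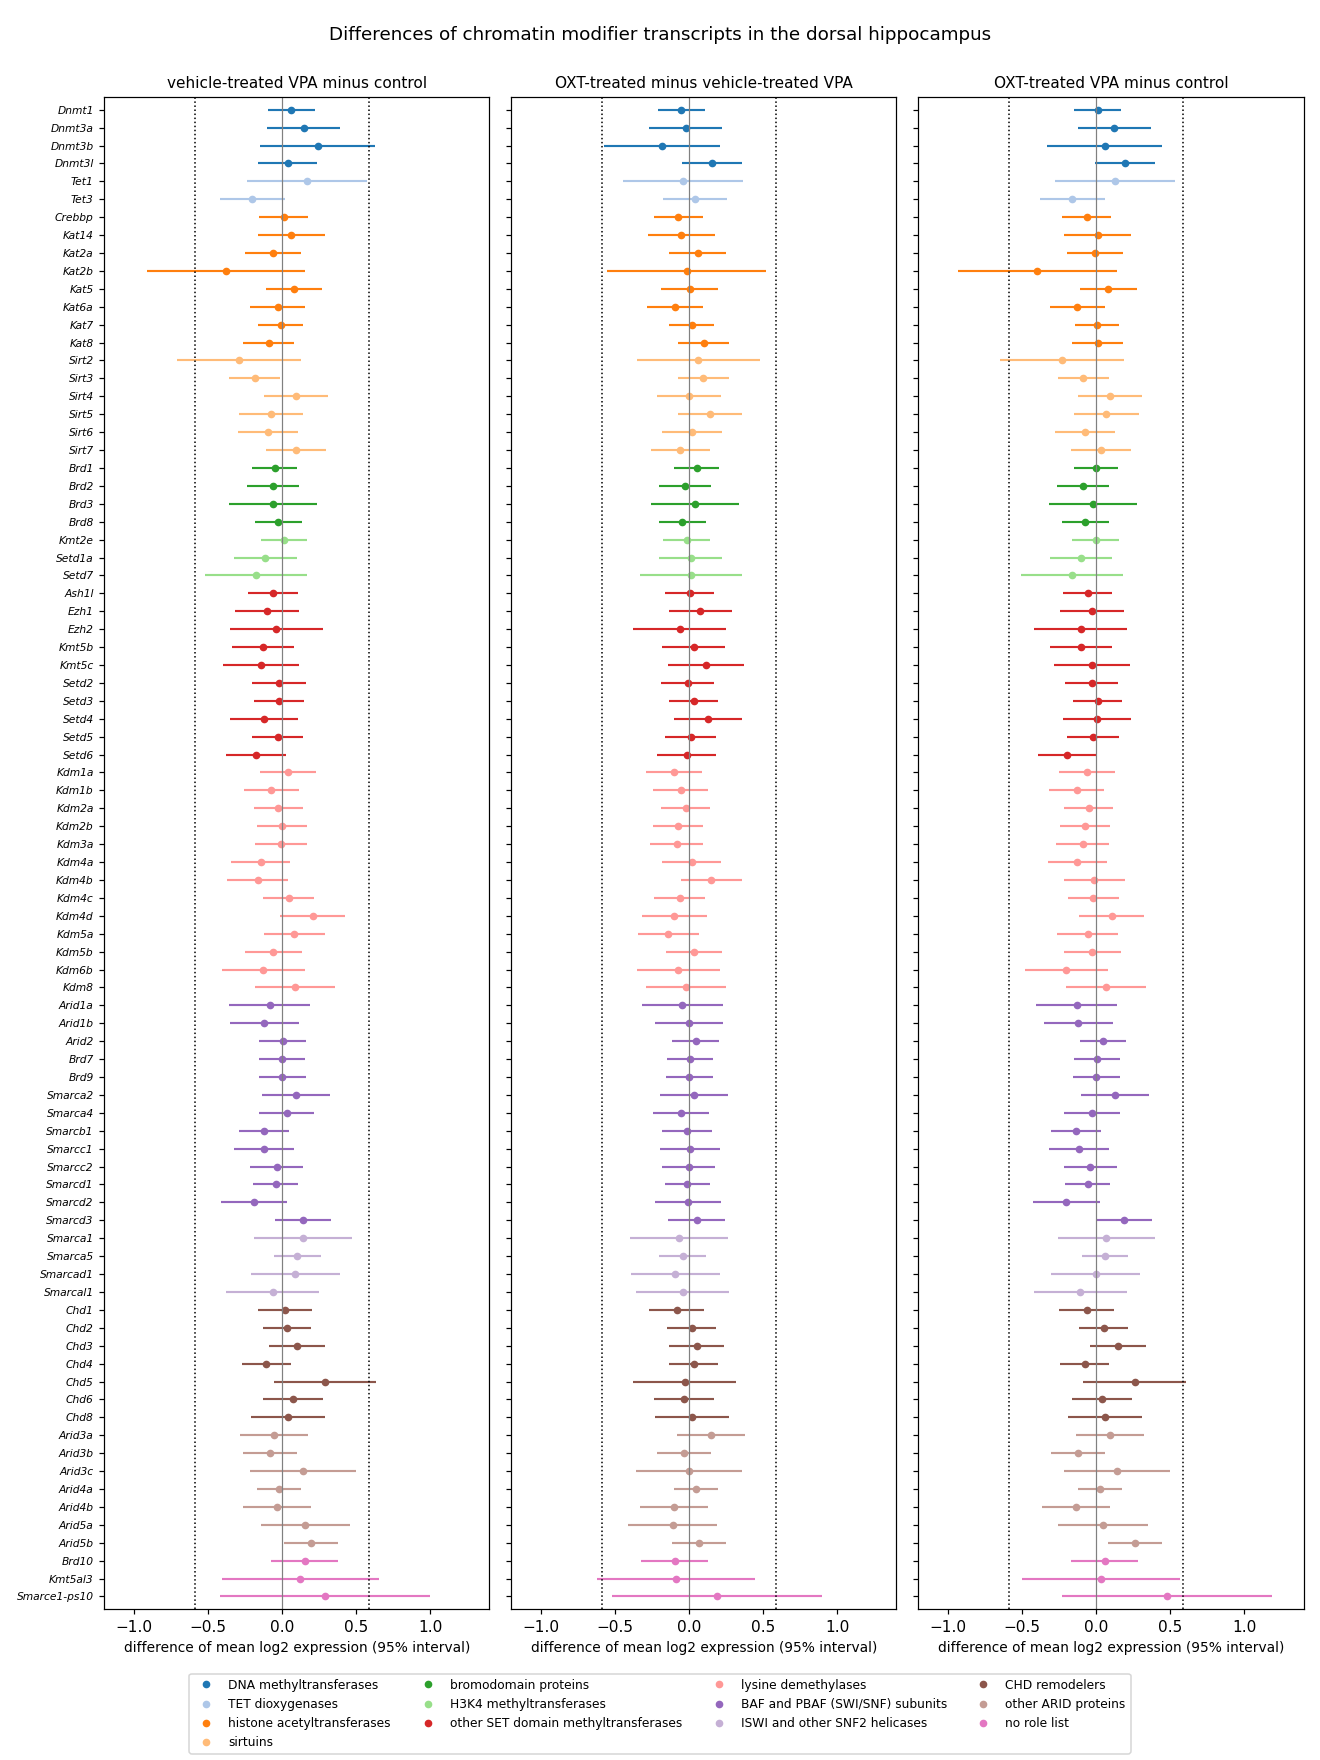
Difference of mean log2 expression (x axis) for each of the 84 genes (y axis, coloured by role) in the 3 pairs of groups, with n = 3 rats per group. Points are the fitted differences, horizontal lines their 95% intervals from limma and dotted lines mark 1.5-fold in both directions; most intervals lie between the dotted lines, and the widest belong to Smarce1-ps10, Kat2b and Kmt5al3.

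Few genes passed the threshold of the study, an unadjusted p below 0.05 in limma, and none passed after adjustment over all probe sets. In vehicle-treated VPA against control rats 2 of 84 genes (2.38%) passed, 1 higher and 1 lower, whereas 8.98% of all probe sets did (5.0% higher and 3.98% lower). None of the 84 genes passed between OXT-treated and vehicle-treated VPA rats, where 4.66% of all probe sets did (1.86% higher and 2.81% lower). In OXT-treated VPA against control rats 2 genes passed, both higher, with 7.38% of all probe sets passing (3.87% higher and 3.51% lower). Among the 8759 probe sets of 1 symbol with a group mean above 6.6, the shares that passed in the 3 comparisons were 11.5%, 1.83% and 10.2%. Of the 68 chromatin modifiers above that level 2, 0 and 2 passed. Centring each array on its median changed the split of the 84 genes to 0 higher and 0 lower in vehicle-treated VPA against control rats, and to 1 higher and 2 lower in OXT-treated VPA against control rats; quantile normalization gave 1 higher and 0 lower in the first. The moderated F over the 3 groups called 1 gene, Arid5b, against 7.54% of all probe sets. The full criteria of the study (F below 0.05, more than 1.5-fold between vehicle-treated VPA and control, and the level of 6.6) were met by 0 of the 84 genes and by 0.654% of all probe sets. The smallest p of any of these genes after Benjamini-Hochberg adjustment in limma was 0.5307, 0.9997 and 0.4659 in the 3 comparisons, in the order given; over all probe sets no adjusted p was below 0.05 in this fit either, the smallest being 0.06546, 0.4892 and 0.08307. That count over the whole array depended on the fit: with only probe sets above 6.6 it was 140 in vehicle-treated VPA and 163 in OXT-treated VPA against control rats, and with trend and robust moderation 80 and 107, none of them a chromatin modifier of these 84.

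The intervals show how large a change these arrays leave possible when littermates are treated as independent. The 95% interval of the difference lay within 1.5-fold in both directions for 78 of the 84 genes in vehicle-treated VPA against control rats, for 82 between the VPA groups, and for 80 in OXT-treated VPA against control rats. Most probe sets behaved this way: among those above the level of 6.6, the shares were 94.1%, 98.5% and 95.6% of the 68 chromatin modifiers and 86.6%, 93.5% and 87.4% of the 8759 probe sets of 1 symbol. The genes whose interval reached 1.5-fold were Chd5, Dnmt3b, Kat2b, Sirt2, Kmt5al3 and Smarce1-ps10 in the first comparison, Kmt5al3 and Smarce1-ps10 in the second, and Chd5, Kat2b, Sirt2 and Smarce1-ps10 in the third. Among the 68 genes above the level of 6.6, the median size of the difference was 0.0767, 0.04 and 0.0633, beside 0.0967, 0.06 and 0.0833 over the 8759 probe sets of 1 symbol above that level. The same 68 genes had a median SE of 0.0831 beside 0.101. Smaller differences go with a smaller SE, and the 2 were not separated here. Over all 84 genes the spread within groups (SD over 3 rats, pooled) had a median of 0.0897 and ran from 0.0208 to 0.451. The plot of cumulative shares gives the sizes side by side. Of the 68 genes, 95.6% lay at or below 0.2 in vehicle-treated VPA against control rats, and 78.3% of all such probe sets did. No test of this contrast between gene sets was made.

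**Figure D2:**
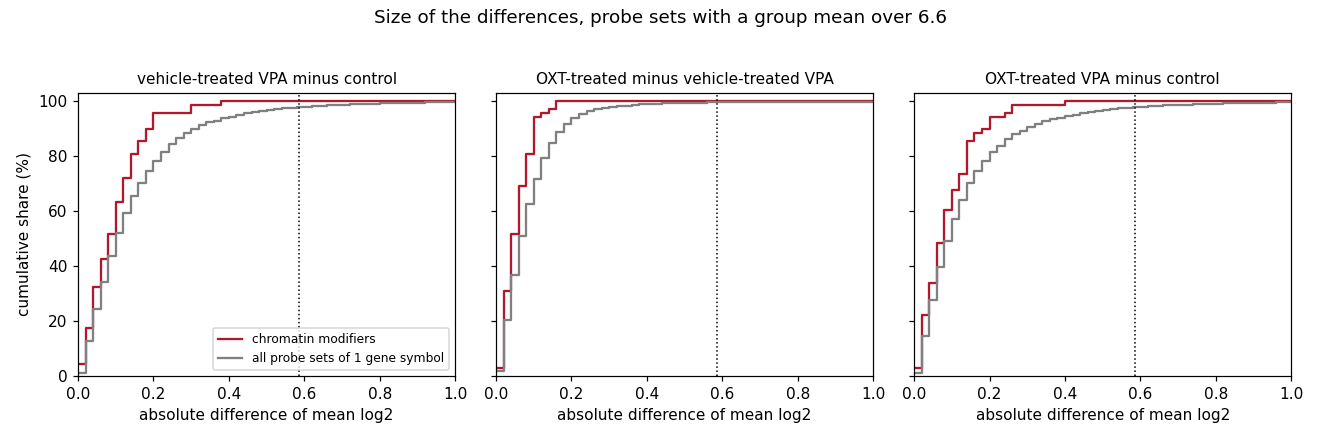
Cumulative share in percent (y axis) of probe sets whose difference of mean log2 is at or below the size on the x axis, for the 68 chromatin modifiers with a group mean above 6.6 (red) and the 8759 probe sets of 1 gene symbol above that level (grey), in the 3 pairs of groups. The red line lies above the grey line in each panel for sizes between 0.1 and 0.3, and the dotted line marks 1.5-fold.

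Arid5b showed the clearest separation of VPA-exposed from control rats. It encodes a DNA-binding protein with an AT-rich interaction domain that recruits the demethylase PHF2. Its log2 expression was 8.47, 8.38 and 8.30 in OXT-treated VPA rats, 8.32, 8.33 and 8.30 in vehicle-treated VPA rats, and 8.14, 8.03 and 8.20 in control rats. All 6 VPA rats were above all 3 control rats, and the VPA groups overlapped. The difference from control was 0.26 in OXT-treated VPA rats (SE 0.08, 95% interval 0.08 to 0.44, limma adjusted p = 0.466) and 0.19 in vehicle-treated VPA rats (SE 0.08, 95% interval 0.01 to 0.38, limma adjusted p = 0.53). The OXT-treated against control difference passed the unadjusted threshold in all 16 alternative fits, with adjusted p values from 0.1485 to 0.7506. The vehicle-treated against control difference no longer passed without control replicate 1 or 2, without any 1 of the 3 vehicle-treated VPA rats, or without OXT-treated VPA replicate 2, where it was 0.15 to 0.20. Both comparisons share the control rats and are not independent of each other.

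Sirt3, a sirtuin of the mitochondrial matrix that deacetylates metabolic enzymes, was the only gene that passed as lower in any pair of groups. It had 7.37, 7.46 and 7.42 in OXT-treated VPA rats, 7.29, 7.27 and 7.40 in vehicle-treated VPA rats, and 7.48, 7.46 and 7.57 in control rats. All 3 vehicle-treated VPA rats were below all 3 control rats, and the OXT-treated rats reached into both ranges. The difference of vehicle-treated VPA from control rats was -0.18 (SE 0.08, 95% interval -0.36 to -0.01, limma adjusted p = 0.53). OXT-treated differed from vehicle-treated VPA rats by 0.10 (95% interval -0.08 to 0.27, limma adjusted p = 0.9997). The first of these did not pass without any 1 of the 3 control rats, without vehicle-treated VPA replicate 1 or 2, or without OXT-treated VPA replicate 2 (differences of -0.21 to -0.15).

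Smarcd3 encodes BAF60C, a SWI/SNF subunit that links the complex to transcription factors in muscle, heart and neurons. The values were 7.13, 7.14 and 7.01 in OXT-treated VPA rats, 7.16, 7.03 and 6.94 in vehicle-treated VPA rats, and 6.89, 6.94 and 6.88 in control rats. Every OXT-treated rat was above every control rat, while vehicle-treated replicate 3 was level with the highest control rat. OXT-treated VPA rats differed from control rats by 0.19 (SE 0.08, limma adjusted p = 0.676), and vehicle-treated VPA rats by 0.14 (95% interval -0.05 to 0.33, limma adjusted p = 0.64). The OXT-treated against control difference did not pass without any 1 of the 3 control rats, without vehicle-treated VPA replicate 2, or without OXT-treated VPA replicate 1 or 2 (differences of 0.17 to 0.21).

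**Figure D3:**
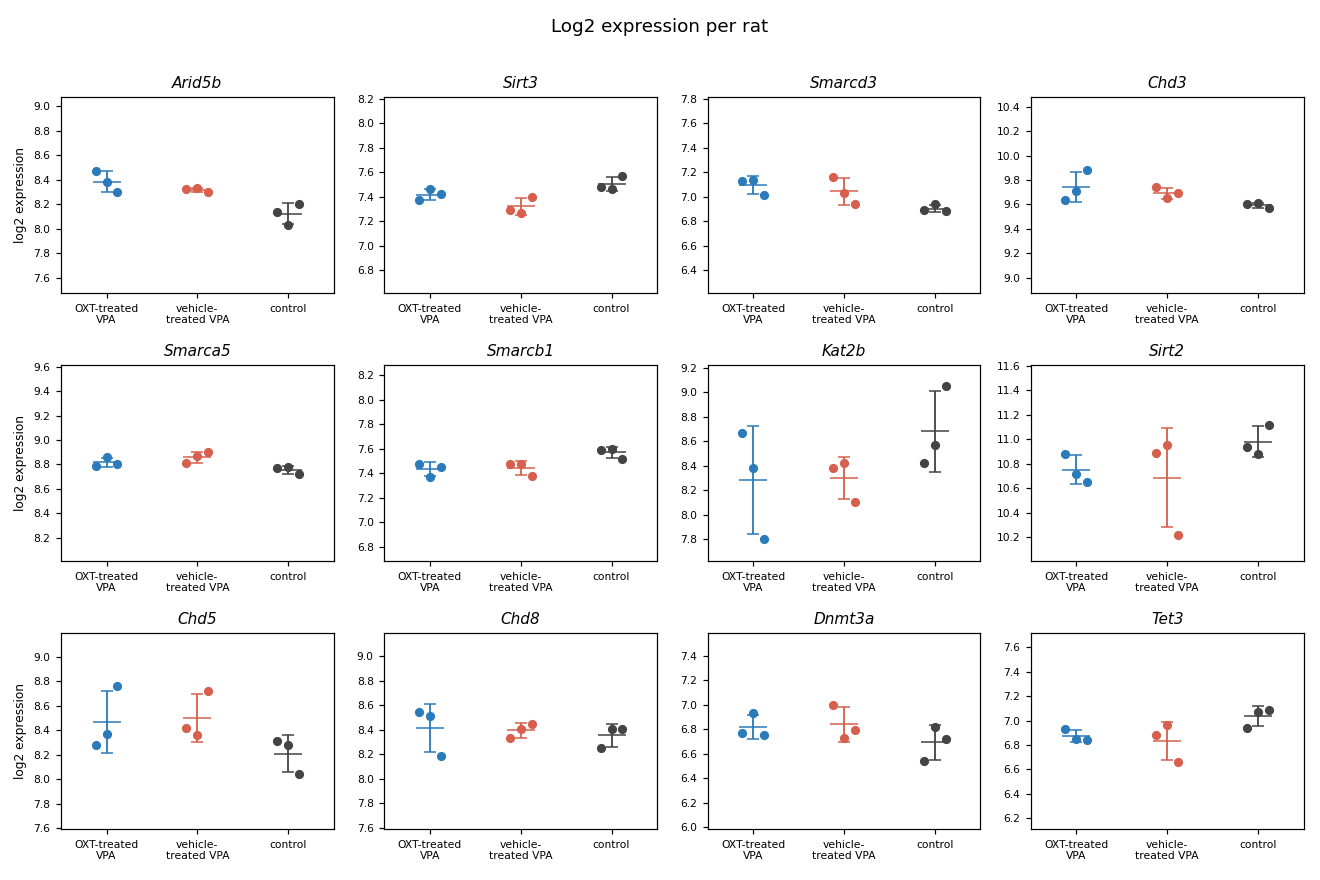
Log2 expression (y axis, the same span in every panel) of 12 genes in the OXT-treated VPA, vehicle-treated VPA and control groups (x axis); points are rats in replicate order, horizontal bars group means and error bars SD (n = 3). Arid5b, Chd3 and Smarca5 had all 6 VPA rats above the control rats and Smarcb1 all 6 below, whereas Kat2b and Sirt2 show wide spreads within groups.

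The RefSeq promoter windows (assembly GRCr8, 250 bases before to 50 after a transcript start) of the 3 genes that passed are shown because they differ in the GC box, GGGCGG read on either strand, the sequence bound by the SP1 family. Capitals mark the GC boxes. Arid5b (chr20:20306464-20306763, plus strand) had 0 GC boxes and 9 CpG sites, Sirt3 (chr1:205393552-205393851, minus strand) had 3 and 20, and the windows of Smarcd3 (chr4:11440950-11441249 and chr4:11463026-11463325, plus strand) had 1 and 18, and 2 and 39, with the 2 boxes of the second window overlapping.
Arid5b: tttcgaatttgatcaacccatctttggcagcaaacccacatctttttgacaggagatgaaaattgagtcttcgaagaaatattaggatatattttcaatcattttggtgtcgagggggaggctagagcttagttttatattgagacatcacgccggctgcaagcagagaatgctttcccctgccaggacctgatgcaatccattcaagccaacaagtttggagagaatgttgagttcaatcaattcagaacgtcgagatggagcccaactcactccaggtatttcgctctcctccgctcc
Sirt3: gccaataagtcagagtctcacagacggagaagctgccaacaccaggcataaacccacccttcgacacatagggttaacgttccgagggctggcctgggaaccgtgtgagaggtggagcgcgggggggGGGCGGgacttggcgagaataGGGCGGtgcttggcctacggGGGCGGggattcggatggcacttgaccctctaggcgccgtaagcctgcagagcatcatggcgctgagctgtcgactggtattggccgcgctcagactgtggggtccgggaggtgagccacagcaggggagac
Smarcd3 first window: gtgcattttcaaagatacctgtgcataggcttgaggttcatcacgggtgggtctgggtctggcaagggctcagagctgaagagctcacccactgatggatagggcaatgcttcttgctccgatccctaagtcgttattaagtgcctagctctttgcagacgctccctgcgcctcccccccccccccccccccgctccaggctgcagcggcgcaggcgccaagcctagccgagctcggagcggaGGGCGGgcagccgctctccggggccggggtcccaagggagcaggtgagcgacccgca
Smarcd3 second window: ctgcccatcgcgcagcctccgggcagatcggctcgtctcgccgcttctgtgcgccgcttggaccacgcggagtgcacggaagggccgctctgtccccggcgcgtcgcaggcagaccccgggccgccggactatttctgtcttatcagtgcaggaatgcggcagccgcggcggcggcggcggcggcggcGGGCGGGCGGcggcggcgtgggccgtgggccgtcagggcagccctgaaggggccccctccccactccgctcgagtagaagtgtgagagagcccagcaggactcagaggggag
Windows were found for 71 of the 84 genes, 81 windows in all. A GC box was present in 54 of the 81 windows (66.7%) and in 33.1% of all 33469 windows, and the median number of CpG sites was 20 per window for these genes and 7 for all windows. A consensus motif of NRF1 was found in 9 windows (11.1%) and in 4.25% of all windows. The E-box CACGTG (6.17% against 6.42%) and the cyclic AMP response element TGACGTCA (1.23% against 1.83%) were about as common as elsewhere. These are matches of letters, on both strands, and say nothing of whether a factor was bound.

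Among the enzymes of DNA methylation, none of 4 methyltransferases and none of 2 TET enzymes passed in any comparison of the reported fit. Dnmt3l, a cofactor without catalytic activity that was below the level of 6.6, passed in OXT-treated VPA against control rats without control replicate 2 (0.24) or without OXT-treated VPA replicate 1 (0.25, limma adjusted p = 0.74 in both). All 4 methyltransferases had positive differences from control in vehicle-treated VPA rats, from 0.04 for Dnmt3l to 0.24 for Dnmt3b, with a median of 0.105. Dnmt3a, which sets new methylation in neurons, had 6.77, 6.93 and 6.75 in OXT-treated VPA rats, 7.0, 6.73 and 6.79 in vehicle-treated VPA rats, and 6.54, 6.82 and 6.72 in control rats. The groups overlapped, and the difference of vehicle-treated VPA from control rats had a 95% interval from -0.10 to 0.39. Dnmt1, which maintains methylation through cell division, differed by 0.06 in the same comparison (95% interval -0.10 to 0.22). Dnmt3b was below the level of 6.6 in all groups, and control replicate 1 (4.23) stood apart from the other arrays (4.49 to 4.96).

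Tet3, a TET enzyme expressed in mature neurons, had 6.93, 6.85 and 6.84 in OXT-treated VPA rats, 6.88, 6.96 and 6.66 in vehicle-treated VPA rats, and 6.94, 7.07 and 7.09 in control rats. OXT-treated and control rats did not overlap, and the difference of vehicle-treated VPA from control rats was -0.20 (95% interval -0.42 to 0.02, limma adjusted p = 0.58). It did pass the unadjusted threshold, with the same difference, when probe sets below 6.6 were left out (limma adjusted p = 0.33). Leaving out vehicle-treated VPA replicate 2 also let it pass, at -0.26 (limma adjusted p = 0.44). Tet1 had the opposite sign, at 0.17 (95% interval -0.24 to 0.57), and its control rats alone spanned 6.77 to 7.36.

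The 8 acetyltransferases had no gene that passed, and their median differences were -0.02 in vehicle-treated VPA against control rats, -0.0067 between the VPA groups and 0.0 in OXT-treated VPA against control rats. Crebbp, which encodes the coactivator CBP needed for long-term memory in rodents, had 9.18, 9.25 and 9.16 in OXT-treated VPA rats, 9.33, 9.23 and 9.25 in vehicle-treated VPA rats, and 9.22, 9.25 and 9.31 in control rats. Its difference between vehicle-treated VPA and control rats was 0.01, with a 95% interval from -0.15 to 0.17, one of the tighter bounds. Kat7, the catalytic subunit of HBO1 complexes, differed by no more than 0.02 in size in any comparison.

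Kat2b (PCAF) and Sirt2 had the largest negative differences from control in vehicle-treated VPA rats among genes above the level of 6.6, and were singled out after their values were seen. Kat2b had 8.67, 8.38 and 7.80 in OXT-treated VPA rats, 8.38, 8.42 and 8.10 in vehicle-treated VPA rats, and 8.42, 8.57 and 9.05 in control rats. Sirt2, a cytoplasmic deacetylase of tubulin that is abundant in oligodendrocytes, had 10.88, 10.72 and 10.65 in OXT-treated VPA rats, 10.89, 10.95 and 10.22 in vehicle-treated VPA rats, and 10.94, 10.88 and 11.12 in control rats. For both genes control replicate 3 was the highest array and a replicate 3 of a VPA group the lowest. Vehicle-treated VPA rats differed from control rats by -0.38 for Kat2b (SE 0.24, 95% interval -0.91 to 0.15) and by -0.29 for Sirt2 (SE 0.18, 95% interval -0.71 to 0.12), and neither passed in limma (adjusted p = 0.66 for each). Kat2b did pass in OXT-treated VPA against control rats without OXT-treated VPA replicate 1 (-0.59, limma adjusted p = 0.75), and Sirt2 in the same comparison without vehicle-treated VPA replicate 3 (-0.23, limma adjusted p = 0.54). The mean of 9 oligodendrocyte markers moved over the same arrays, at 10.34, 10.13 and 9.62 in OXT-treated VPA rats, 10.22, 10.37 and 9.54 in vehicle-treated VPA rats, and 10.42, 10.41 and 10.93 in control rats, with 2 of the 9 markers lower and 0 higher than control in each VPA group. The part of these cells in the values of Kat2b and Sirt2 was not tested. In RNA of whole tissue, fewer cells of a type and less RNA per cell cannot be told apart.

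Of the 6 sirtuins, Sirt3 was the only one that passed. Sirt4 and Sirt5, which like Sirt3 reside in mitochondria, differed by 0.09 and -0.07 in vehicle-treated VPA against control rats, and the nuclear Sirt6 and nucleolar Sirt7 by -0.10 and 0.09. The 4 bromodomain proteins of the BRD family outside SWI/SNF differed by -0.06 to -0.03 in that comparison, and none passed. Brd1, a scaffold of acetyltransferase complexes, had 7.94 in each of the 3 OXT-treated VPA rats, 7.88, 7.93 and 7.86 in vehicle-treated VPA rats, and 7.94 in each of the 3 control rats. The vehicle-treated rats were thus below both other groups without overlap, by a difference of only -0.05 from control (95% interval -0.20 to 0.10). Exact repeats of this kind were common in the deposited values, which have 2 decimals: 35 of the 84 genes (41.7%) had the same value on 3 or more of 9 arrays and 10 (11.9%) on 5 or more, beside 28.5% and 3.44% of the 8759 probe sets of 1 symbol above 6.6. Such repeats lower the spread of a gene, and their part in the small SEs of these genes was not tested.

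Genes on the lists of H3K4 and other SET domain methyltransferases passed in no comparison of the reported fit. The activity of each listed protein on histones was not checked. Among the 3 on the H3K4 list, Setd7 differed by -0.18, Setd1a by -0.11 and Kmt2e by 0.01 in vehicle-treated VPA against control rats. Setd7 had 9.11, 9.28 and 9.12 in OXT-treated VPA rats, 9.40, 9.30 and 8.77 in vehicle-treated VPA rats, and 9.32, 9.36 and 9.32 in control rats. All OXT-treated rats lay below all control rats, and vehicle-treated replicate 3 lay below every other array. The other 10 SET domain genes all had negative differences in vehicle-treated VPA against control rats, between -0.18 for Setd6 and -0.02 for Setd2 and Setd3, with a median of -0.08, and none passed. Setd6 passed without control replicate 3, at -0.27 in vehicle-treated VPA and -0.28 in OXT-treated VPA against control rats, and Kmt5b without vehicle-treated VPA replicate 3, at -0.21 in vehicle-treated VPA against control rats (limma adjusted p from 0.49 to 0.58). In OXT-treated against vehicle-treated VPA rats the same 10 genes had a median of 0.02 and a range from -0.06 to 0.13, and the vehicle-treated arrays enter both comparisons.

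Ash1l, an H3K36 methyltransferase, had 9.63, 9.72 and 9.70 in OXT-treated VPA rats, 9.70, 9.64 and 9.70 in vehicle-treated VPA rats, and 9.70, 9.82 and 9.70 in control rats. Setd5 had 8.79, 8.75 and 8.83 in OXT-treated VPA rats, 8.79, 8.87 and 8.68 in vehicle-treated VPA rats, and 8.80, 8.83 and 8.80 in control rats. Vehicle-treated VPA rats differed from control rats by -0.06 for Ash1l (95% interval -0.23 to 0.11) and -0.03 for Setd5 (95% interval -0.20 to 0.14). Ezh2, the catalytic subunit of Polycomb repressive complex 2 in dividing cells, was below the level of 6.6, and its difference of -0.04 had an interval from -0.35 to 0.27. Ezh1, its counterpart in mature cells, had 9.19, 9.33 and 9.04 in OXT-treated VPA rats, 9.01, 9.16 and 9.16 in vehicle-treated VPA rats, and 9.27, 9.19 and 9.18 in control rats. The vehicle-treated rats were below the control rats by a margin of 0.02 and the OXT-treated rats overlapped both.

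The 13 lysine demethylases had median differences of -0.0067, -0.06 and -0.06 in the 3 comparisons, and none passed. In vehicle-treated VPA against control rats, Kdm4b passed as lower without vehicle-treated VPA replicate 1 (-0.23) and Kdm4d as higher without vehicle-treated VPA replicate 2 (0.28), with limma adjusted p values of 0.53 and 0.41. Kdm6b, which removes methyl groups from H3K27 and responds to neuronal activity and inflammation, had 7.44, 7.23 and 7.25 in OXT-treated VPA rats, 7.49, 7.54 and 7.11 in vehicle-treated VPA rats, and 7.55, 7.53 and 7.44 in control rats. OXT-treated VPA rats differed from control rats by -0.20 (95% interval -0.48 to 0.08, limma adjusted p = 0.80). This difference passed without vehicle-treated VPA replicate 3, with the same value and an adjusted p = 0.53 in limma. Kdm5a, a demethylase of H3K4, had 8.43, 8.43 and 8.17 in OXT-treated VPA rats, 8.51, 8.46 and 8.48 in vehicle-treated VPA rats, and 8.34, 8.43 and 8.43 in control rats. Its vehicle-treated rats were above both other groups without overlap, with a difference of -0.14 for OXT-treated against vehicle-treated VPA rats (95% interval -0.34 to 0.06), of which OXT-treated replicate 3 made the largest part.

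Among 13 subunits of SWI/SNF complexes, Smarcd3 was the only one that passed in the reported fit, in OXT-treated VPA against control rats. Smarcd2, which encodes BAF60B, had the largest difference of these subunits in size. It had 7.02, 6.87 and 6.98 in OXT-treated VPA rats, 7.11, 6.90 and 6.89 in vehicle-treated VPA rats, and 7.20, 7.02 and 7.25 in control rats. Its differences from control were -0.20 in OXT-treated and -0.19 in vehicle-treated VPA rats (95% intervals -0.42 to 0.02 and -0.41 to 0.03), and control replicate 2 lay within the range of the vehicle-treated rats. Without control replicate 2 it passed as lower in both comparisons (-0.27 in OXT-treated and -0.26 in vehicle-treated VPA rats), without vehicle-treated VPA replicate 1 in vehicle-treated VPA against control rats (-0.26), and with median centring in OXT-treated VPA against control rats (-0.22), with limma adjusted p values from 0.50 to 0.71. The 2 catalytic ATPases differed little. Smarca4 (BRG1) had 9.07, 9.05 and 8.95 in OXT-treated VPA rats, 9.18, 9.05 and 9.01 in vehicle-treated VPA rats, and 8.97, 9.06 and 9.12 in control rats, and vehicle-treated VPA differed from control rats by 0.03 (95% interval -0.16 to 0.22). Smarca2 (BRM) had 9.06, 8.97 and 8.89 in OXT-treated VPA rats, 9.08, 8.98 and 8.76 in vehicle-treated VPA rats, and 8.81, 8.79 and 8.94 in control rats, a difference of 0.09 in the same comparison (95% interval -0.14 to 0.32). The DNA-binding subunits Arid1a and Arid1b differed by -0.08 and -0.12, with 95% intervals from -0.36 to 0.19 and from -0.35 to 0.11. In both of them vehicle-treated replicate 3 (8.19 for Arid1a, 8.47 for Arid1b) was the lowest of the 9 arrays. The core subunit Smarcb1 had 7.48, 7.37 and 7.45 in OXT-treated VPA rats, 7.48, 7.48 and 7.38 in vehicle-treated VPA rats, and 7.59, 7.60 and 7.52 in control rats. All 6 VPA rats were below all control rats, with differences from control of -0.14 in OXT-treated and -0.12 in vehicle-treated VPA rats that did not pass in limma (adjusted p = 0.76 and 0.64).

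Of the CHD remodelers 7 were measured and none passed. Chd8 had 8.55, 8.51 and 8.19 in OXT-treated VPA rats, 8.33, 8.41 and 8.45 in vehicle-treated VPA rats, and 8.25, 8.41 and 8.41 in control rats, and vehicle-treated VPA differed from control rats by 0.04 (95% interval -0.21 to 0.29). Chd2, linked to epileptic encephalopathy in humans, differed by 0.03 (95% interval -0.13 to 0.20). Chd3, an ATPase of the NuRD complex, had 9.64, 9.71 and 9.88 in OXT-treated VPA rats, 9.74, 9.65 and 9.69 in vehicle-treated VPA rats, and 9.60, 9.61 and 9.57 in control rats. All 6 VPA rats were above the control rats, with differences from control of 0.15 in OXT-treated and 0.10 in vehicle-treated VPA rats and adjusted p values of 0.77 and 0.74 in limma. After quantile normalization the first was 0.18 and passed the unadjusted threshold (limma adjusted p = 0.65). Chd4, the other main NuRD ATPase, had the opposite sign, at -0.08 and -0.11. Chd5, a neuronal member of the same family, had 8.28, 8.37 and 8.76 in OXT-treated VPA rats, 8.42, 8.36 and 8.72 in vehicle-treated VPA rats, and 8.31, 8.28 and 8.04 in control rats. Replicate 3 was the highest array in both VPA groups and the lowest in the control group, and the difference of vehicle-treated VPA from control rats was 0.29 (SE 0.15, 95% interval -0.06 to 0.64), which passed only without OXT-treated VPA replicate 3 (limma adjusted p = 0.50). Among the 4 genes of ISWI and other SNF2 helicases, Smarca5 had 8.79, 8.86 and 8.80 in OXT-treated VPA rats, 8.81, 8.87 and 8.90 in vehicle-treated VPA rats, and 8.77, 8.78 and 8.72 in control rats. Again all 6 VPA rats were above the control rats, by a margin of 0.01, and the differences from control were 0.06 in OXT-treated and 0.10 in vehicle-treated VPA rats.

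Besides Arid5b, the other 6 ARID genes outside SWI/SNF had differences from -0.08 to 0.16 in vehicle-treated VPA against control rats, and none passed. No role was assigned here to Brd10, Kmt5al3 or Smarce1-ps10. Brd10 passed in vehicle-treated VPA against control rats without vehicle-treated VPA replicate 1 (0.23, limma adjusted p = 0.54). Kmt5al3 is a Kmt5a-like copy and Smarce1-ps10 is annotated as a pseudogene, so their probes may read related transcripts and their values are uncertain. Smarce1-ps10 was below the level of 6.6 on every array and had the widest spread, at 5.0, 3.59 and 4.20 in OXT-treated VPA rats, 3.92, 4.03 and 4.27 in vehicle-treated VPA rats, and 4.10, 3.57 and 3.68 in control rats. Without OXT-treated VPA replicate 2 it passed in OXT-treated VPA against control rats, at 0.82 (limma adjusted p = 0.62).

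Counted by separation alone, the groups did not overlap for 9 of the 84 genes in vehicle-treated VPA against control rats, beside 13.6% of all probe sets. Arid5b, Chd3, Chd5, Kdm5a and Smarca5 were higher and Brd1, Ezh1, Sirt3 and Smarcb1 lower. Between OXT-treated and vehicle-treated VPA rats this held for 3 genes, Brd1 higher and Kat6a and Kdm5a lower, beside 6.33% of all probe sets. In OXT-treated VPA against control rats it held for 8 genes, beside 12%: Arid5b, Chd3, Smarca5 and Smarcd3 were higher and Chd4, Setd7, Smarcb1 and Tet3 lower. All 6 VPA rats lay on 1 side of the 3 control rats for 4 genes, beside 5.93% of all probe sets. The shares of the 84 genes were 10.7%, 3.57%, 9.52% and 4.76%, beside 13.6%, 6.33%, 12% and 5.93% of all probe sets. The comparisons share arrays, a tie counted as overlap, and the contrast with all probe sets was not tested. Apart from the genes that passed and Tet3, the genes named here were picked out after their values were seen.

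**Figure D4:**
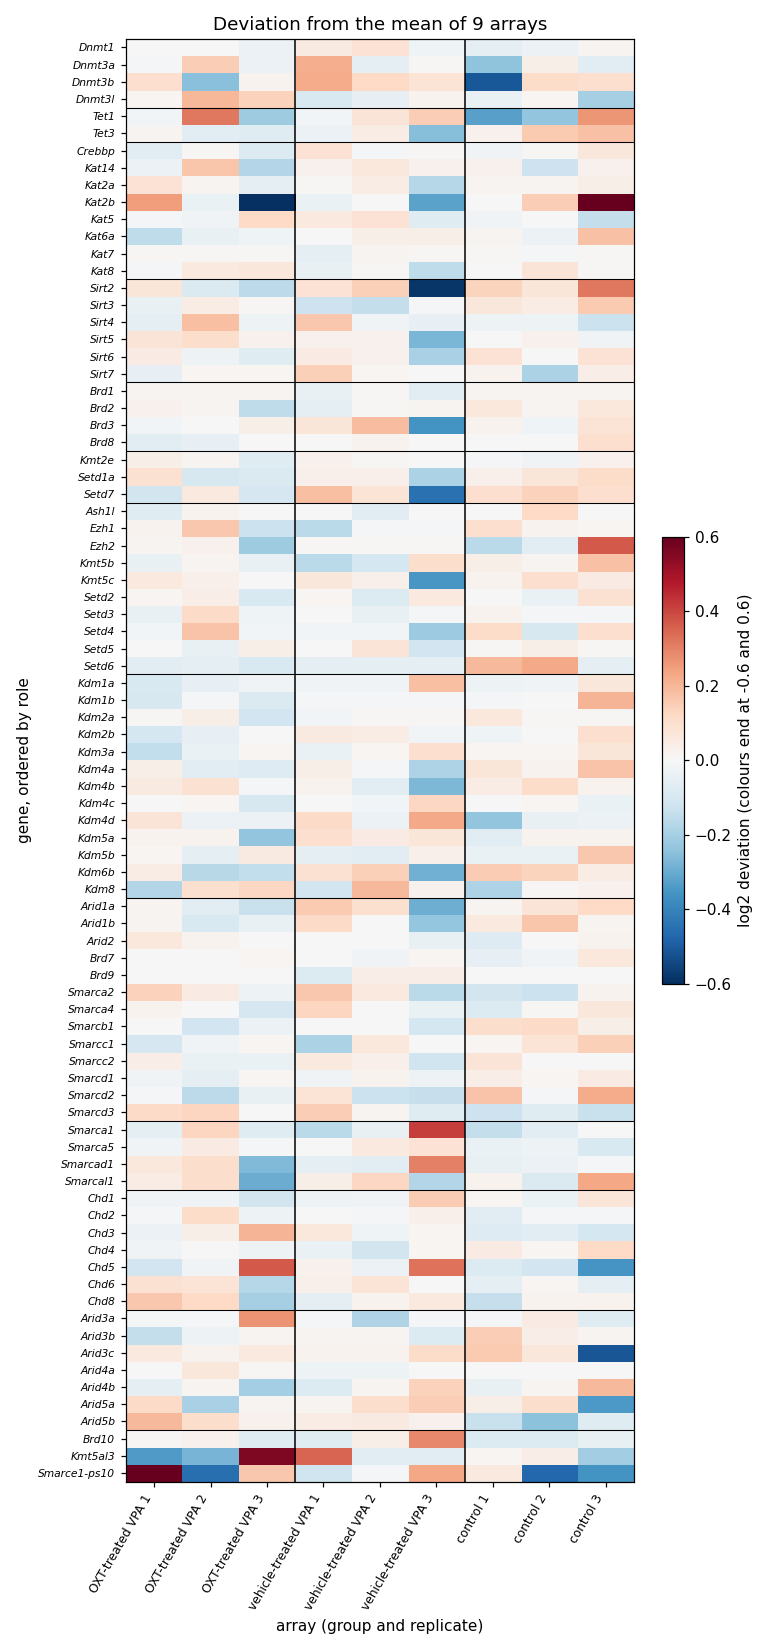
Deviation of each of the 84 genes (rows, ordered by role and separated by lines) from its mean over the 9 arrays (columns, by group), in log2 units on the colour scale, which ends at -0.6 and 0.6. No block of rows changes colour at the borders between groups. Most of the strongest colours stand in single cells of the replicate 3 columns and in the row of Smarce1-ps10, and Dnmt3b on control replicate 1 is another.

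Single arrays carried the largest deviations. Vehicle-treated VPA replicate 3 was the array farthest from the mean of the gene for 25 of the 84 genes, 19 of them below it, followed by control replicate 3 with 15 genes, 11 of them above it, and OXT-treated VPA replicate 3 with 14 genes, 10 of them below it. The other arrays were farthest for 2 to 7 genes each. The median deviation of the 84 genes was between -0.03 and 0.02 on every array, and the medians of all probe sets were between 5.75 and 5.82. These shifts are small, but so are the differences between groups, and median centring changed the calls as given above. On control replicate 3, 56 of the 84 genes lay above their mean, on OXT-treated VPA replicate 3 29, and on the other arrays 39 to 48. Neither these counts nor those of farthest arrays were made over all probe sets, so whether they are particular to these genes was not tested. Marker lists of neighboring tissue also varied between the arrays. The mean of 15 choroid plexus markers was 5.75 to 8.32 in OXT-treated VPA rats, 5.36 to 5.99 in vehicle-treated VPA rats and 7.18 to 7.97 in control rats, and 13 of them were higher in OXT-treated than in vehicle-treated VPA rats and 13 lower in vehicle-treated VPA than in control rats. The mean of 10 thalamic markers was 6.94 to 8.31 in OXT-treated VPA rats, 6.72 to 8.23 in vehicle-treated VPA rats and 6.49 to 6.83 in control rats, with 6 of them higher than control in OXT-treated and 5 in vehicle-treated VPA rats. Of the markers of hippocampal principal cells, 8 of 9 measured were above 6.6, while 2 of 10 markers of dividing cells were. Lists of neighboring tissue reached that level too, with 13 of 15 choroid plexus and 9 of 10 thalamic markers. These counts therefore cannot check the tissue label. The principal cell markers also differed between groups: in each VPA group 3 of the 9 were lower and 1 higher than in control rats, with median differences of -0.27 in OXT-treated and -0.34 in vehicle-treated VPA rats. For 8 endothelial markers the mean was 7.595 to 7.769 in OXT-treated VPA, 7.504 to 7.685 in vehicle-treated VPA and 7.386 to 7.42 in control rats. All 6 VPA rats were above the control rats there, as for Arid5b. Higher than control were 4 of these markers in OXT-treated and 3 in vehicle-treated VPA rats, and 0 were lower. Of 10 meningeal markers, 5 were higher than control in OXT-treated and 1 in vehicle-treated VPA rats, and 0 lower. The part of these tissues and cells in the values above, those of Arid5b included, was not tested.

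Genes of partner proteins outside the naming rule included a few with larger differences from control. Of 90 genes for Polycomb, COMPASS, methyl-CpG binding, other methyltransferase, SWI/SNF and acetyltransferase complexes, vehicle-treated VPA against control rats had 1 that passed as higher (Pcgf5) and 5 as lower, which leaves 84, and the median difference was -0.05. These 6 of 90 stand beside 2 of the 84 chromatin modifiers and 8.98% of all probe sets. In OXT-treated VPA against control rats 1 partner (Pcgf5) passed as higher and 1 (Gadd45b) as lower, beside 7.38% of all probe sets. Gadd45b, an activity-induced gene with a role in DNA demethylation in the mouse hippocampus, had 6.98, 6.70 and 7.02 in OXT-treated VPA rats, 6.53, 6.94 and 6.88 in vehicle-treated VPA rats, and 7.35, 7.31 and 7.34 in control rats. All VPA rats were below all control rats, and the differences from control were -0.43 in OXT-treated (SE 0.13, limma adjusted p = 0.44) and -0.55 in vehicle-treated VPA rats (SE 0.13, limma adjusted p = 0.22). Pcgf5, a subunit of Polycomb repressive complex 1, had 6.66, 6.66 and 6.78 in OXT-treated VPA rats, 6.66, 6.67 and 6.99 in vehicle-treated VPA rats, and 6.20, 6.46 and 6.23 in control rats. It was higher than control by 0.40 in OXT-treated (SE 0.12, limma adjusted p = 0.42) and by 0.48 in vehicle-treated VPA rats (SE 0.12, limma adjusted p = 0.24). The other lower genes in vehicle-treated VPA rats were Rnf2, Phc2 and Yaf2 of the Polycomb list, by -0.26, -0.25 and -0.24, and Mbd3 of the NuRD complex, by -0.30, with adjusted p values from 0.47 to 0.55 in limma. Between OXT-treated and vehicle-treated VPA rats 0 of the 90 genes passed.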

How the data were processed

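RNA of the dorsal hippocampus was measured in 9 rats on Rat Gene 2.0 ST arrays. The deposited log2 values came from the authors' array processing, for which the methods name Transcriptome Analysis Console 4.0 and the submitters' processing notes Affymetrix Expression Console, and were written with 2 decimals, from 0.9 to 13.77. The summarization method and genome build are not given in the sources used here. The deposited log2 values were used without further normalization.

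Of 30429 probe sets, 18511 carried 1 gene symbol. Gene names were checked in a RefSeq table of the assembly GRCr8, where all 84 members matched. With limma 3.58.1 in R 4.3.3, 1 linear model without intercept took all probe sets and the 3 groups. Variances were moderated by eBayes (2.723 prior degrees of freedom), and 95% intervals used the moderated SE. Calls used an unadjusted p below 0.05, and p values were adjusted over all probe sets by the Benjamini-Hochberg method. The procedure was tested on simulated data. The 16 alternative fits are given in the closing section.

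The members, role lists, partner lists and markers were chosen with earlier results of these data known. Genes are named where they passed in a pair of groups (up to 8 in each direction) or stand in a fixed list of disease-linked members (Chd2, Chd8, Setd5, Ash1l, Arid1a, Arid1b, Smarca2, Smarca4, Kdm6b, Crebbp, Ezh2, Dnmt1, Dnmt3a, Tet1 and Tet3 among those measured), or where the groups do not overlap and differ by over 1.5-fold; other named genes were chosen after their values were seen.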

Additional observations from a re-analysis of the deposited data

How the results depend on the processing

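No member passed at an adjusted p below 0.05 in limma in the reported fit or in any of 16 alternatives, where the smallest was 0.1485, while over all probe sets 140 and 163 passed with only probe sets above 6.6 and 80 and 107 with trend and robust moderation (vehicle-treated and OXT-treated VPA against control rats). Counts of genes at an unadjusted p below 0.05 were small and moved. In vehicle-treated VPA against control rats the reported 1 higher and 1 lower became 1 and 0 with quantile normalization (median difference 0.0046) and with only the 2 groups in the fit, 0 and 0 with median centring, and 1 and 2 with only probe sets above 6.6. In OXT-treated VPA against control rats the reported 2 higher and 0 lower became 1 and 2 with median centring (median difference -0.04). Quantile normalization gave a median difference of -0.0218 between the VPA groups. The gene called by F was lost with median centring (0 genes), and without the fold criterion 1 gene met the other criteria of the study. Arid5b in vehicle-treated VPA rats, Sirt3 and Smarcd3 lost their calls with median centring and with the replicate block, and Sirt3 also with quantile normalization and with only the 2 groups, although the differences under the alternatives that kept all arrays stayed at 0.1867 to 0.2187, -0.19 to -0.1593 and 0.17 to 0.197; Setd6 and Smarcd2 were the 2 lower genes under median centring. The cause of these shifts was not tested.

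The replicate number of the labels was also used as a block. Same-numbered arrays had correlations of their deviations from -0.2123 to 0.101 over 9 pairs, 1 of 9 arrays correlated best with its own number, and the numbers were not taken as a pairing. With the replicate block, vehicle-treated VPA against control rats had 0 higher and 0 lower genes, OXT-treated VPA against control rats had 1 higher, and F called 0.

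Leaving out 1 array at a time gave 0 to 2 higher and 0 to 2 lower genes in vehicle-treated VPA against control rats, 0 higher and 0 to 1 lower between the VPA groups, 1 to 2 higher and 0 to 2 lower in OXT-treated VPA against control rats, 0 to 2 genes by F and 0 by the criteria of the study. The median differences ran from -0.025 to 0.0067, from -0.0242 to 0.0125 and from -0.0375 to 0.0017. The gene lower between the VPA groups was Kmt5al3 without OXT-treated VPA replicate 3 (-0.38). For the genes that passed in the reported fit and those of the fixed list, 26 values under the alternatives no longer passed and 3 newly passed. Other genes named above also newly passed in some fits and are not in these counts. Among the values of the same genes, none of the 64 for called differences changed sign. Of the 797 for differences that were not called, 40 did, all with a reported size of 0.127 or less. With 3 rats per group and a median SE of 0.0885, differences below about 0.2 mostly did not pass the unadjusted threshold. Larger ones did not always pass either. In vehicle-treated VPA against control rats -0.38 for Kat2b and 0.29 for Chd5 did not pass. In OXT-treated VPA against control rats 0.26 for Arid5b did. No difference of these genes passed after adjustment.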
